A study of Mus musculus with 4 samples.

Results

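Laminin chains and collagens of the basement membrane were followed through the cell classes of the adult mouse mammary gland. The set comprised 6 laminin chain genes (Lama3, Lama4, Lama5, Lamb1, Lamb3 and Lamc1) and 3 collagen genes (Col4a1, Col4a2 and Col17a1), chosen by gene symbol. All 9 were found once each among the 27998 genes of the deposited matrix.

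The basement membrane is the thin sheet of matrix on which the mammary epithelium rests, with the contractile basal (myoepithelial) cells next to it and the luminal cells lining the duct above them. Each laminin is secreted as a trimer of an alpha, a beta and a gamma chain, and laminins and type IV collagen form the separate networks of the sheet. The same sheet also surrounds blood vessels. Lama3 and Lamb3 encode chains of the laminin that anchors hemidesmosomes, the rivets between basal epithelial cells and matrix. Col17a1 encodes a transmembrane collagen of the hemidesmosome itself and is not a sheet-forming collagen. Zeb1 is a zinc-finger transcription factor best known as a repressor of epithelial genes.

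Cells sorted by flow cytometry were profiled with Chromium Single Cell 3′ v2 chemistry in 4 libraries. The libraries came from Zeb1 MSKO mice at 8 and 9 weeks of age and from control mice at 8 and 9 weeks of age, all of strain C57BL/B6. The labels do not expand MSKO, name the deleted part of Zeb1 or a Cre driver, list the sort markers, or say how many animals gave each library. The p-values below therefore measure only how far these libraries spread, which may be technical. Values are unique molecular identifiers (UMIs, counted transcripts) of a gene per 1000000 UMIs of a cell class in a library, written CPM. Reads at the 3′ end do not show whether Zeb1 was deleted. Zeb1 was listed at 0.617 and 0.233 CPM in basal-like cells of the 8 and 9 week Zeb1 MSKO libraries, against 0.485 and 0 CPM in the control libraries. In fibroblast-like cells it was at 74.2 and 50.8 CPM in Zeb1 MSKO libraries, against 60.1 and 85.1 CPM in control libraries.

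The libraries held 80853204 to 122122443 UMIs, and the median barcode held 6376 to 10529.5 UMIs. Of 36884 barcodes, 33964 cells were kept, and 682 of the 36194 distinct barcode sequences occurred in more than 1 library. Cells were gated on raw counts of marker genes, none of them among the 9 genes, into 5 classes tested here. The epithelium gave 10279 basal-like and 11332 luminal progenitor-like cells beside 8094 hormone-sensing luminal-like cells, and the stroma gave 1010 fibroblast-like and 557 endothelial-like cells. At 9 weeks the stroma was thin, with 33 and 25 fibroblast-like and 8 and 11 endothelial-like cells in the Zeb1 MSKO and control libraries. The Zeb1 MSKO library at 8 weeks stood apart, with the lowest median depth and with 14.8% of its cells in no class, against 4.10% to 5.01% in the other libraries. It gave 4123 basal-like cells of 8976 kept, against 1709 of 8935 in the control library at 8 weeks. Of hair follicle keratinocyte-like cells it held 74, against 2 in that control library and 0 in both 9 week libraries. It also held the most counts of basal keratin in its luminal-like cells, as given below beside the results they touch.

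On the mm10 assembly, per GENCODE coordinates, the genes lie on 7 chromosomes. Col4a1 (chromosome 8, 11198423 to 11312826, minus strand) and Col4a2 (chromosome 8, 11312805 to 11449287, plus strand) are transcribed away from each other, with starts 21 bases apart. Their annotated first exons share these bases, shown because the pair also varied together across cell classes.

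Col4a1 and Col4a2 shared bases, GRCm38.p6 chr8:11312805-11312826, plus strand: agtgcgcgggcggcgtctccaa

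The hexamer CACCTG, or CAGGTG on the other strand, is a site that Zeb1 is known to bind. RefSeq promoters (GRCm38.p6) were searched on both strands in the 250 bases before each start. Of all 32851 promoter windows, 5657 (17.2%) held the hexamer. Of the 9 genes, 6 had at least 1 window, and 2 of their 7 windows held it. The windows of Lamb3 and Lama5 that hold it are printed with the hexamer in capitals, beside that of Col17a1, which lacks it and whose gene had the widest fold difference between basal-like and luminal-like cells. Bases inside an annotated untranslated region are left out, and a match describes letters only.

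Lamb3, chr1:193302142-193302242, plus strand: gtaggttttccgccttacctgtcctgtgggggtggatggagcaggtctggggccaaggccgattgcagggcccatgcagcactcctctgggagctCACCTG
Lama5, chr2:180225860-180226109, minus strand: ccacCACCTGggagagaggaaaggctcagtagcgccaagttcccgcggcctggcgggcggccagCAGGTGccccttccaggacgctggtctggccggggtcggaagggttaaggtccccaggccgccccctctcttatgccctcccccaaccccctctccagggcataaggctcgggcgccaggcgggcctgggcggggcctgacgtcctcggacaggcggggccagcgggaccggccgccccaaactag
Col17a1, chr19:47692095-47692292, minus strand: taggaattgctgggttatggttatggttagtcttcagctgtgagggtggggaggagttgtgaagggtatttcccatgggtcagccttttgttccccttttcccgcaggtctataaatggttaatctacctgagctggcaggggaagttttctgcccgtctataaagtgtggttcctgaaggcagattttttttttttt

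Each laminin alpha chain had its own distribution over the cell classes. Lama3, the alpha chain of the hemidesmosome laminin (ENSMUSG00000024421), was at 55.8 and 50.7 CPM in basal-like cells of the 8 and 9 week Zeb1 MSKO libraries, against 47.5 and 51.7 CPM in the control libraries. Its level in luminal progenitor-like cells was 9.42 and 4.18 CPM in Zeb1 MSKO libraries, against 3.53 and 5.46 CPM in control libraries. Every basal-like value stood above every value of another class, and the remaining classes did not exceed 3.89 CPM. Averaged over the 4 libraries, Lama3 had 51.4 ± 3.43 CPM in basal-like and 5.65 ± 2.64 CPM in luminal progenitor-like cells (SD, n = 4).

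Lama4, an alpha chain known from vessel walls and mesenchyme (ENSMUSG00000019846), had the opposite distribution. Fibroblast-like cells had 67.3 and 145 CPM of Lama4 in the 8 and 9 week Zeb1 MSKO libraries, against 113 and 160.2 CPM in the control libraries. Endothelial-like cells had 108 and 60.1 CPM of Lama4 in Zeb1 MSKO libraries, against 103 and 65.2 CPM in control libraries. These stromal ranges overlapped each other and lay above all epithelial values. Basal-like cells had 7.91 and 11.8 CPM of Lama4 in Zeb1 MSKO libraries, against 6.72 and 3.34 CPM in control libraries. Luminal progenitor-like cells had 3.20 to 4.53 CPM and hormone-sensing luminal-like cells at most 0.8292 CPM of Lama4.

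Lama5, the broadly expressed epithelial and vascular alpha chain (ENSMUSG00000015647), was the member with its highest mean in a luminal class. Hormone-sensing luminal-like cells had 52.1 and 40.3 CPM of Lama5 in the 8 and 9 week Zeb1 MSKO libraries, against 47.3 and 68.7 CPM in the control libraries. Basal-like cells had 42.8 and 44.7 CPM of Lama5 in Zeb1 MSKO libraries, against 50.4 and 47.8 CPM in control libraries. The 2 ranges overlapped. Luminal progenitor-like cells had 15.4 to 20.4 CPM of Lama5, below every basal-like and hormone-sensing value. Fibroblast-like cells had at most 6.38 CPM of it.

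Among the beta chains, Lamb3, the partner of Lama3 (ENSMUSG00000026639), was highest in basal-like cells, with 193 and 174 CPM in the 8 and 9 week Zeb1 MSKO libraries, against 146 and 202 CPM in the control libraries. Luminal progenitor-like cells had 30.2 and 19.7 CPM of Lamb3 in Zeb1 MSKO libraries, against 15.1 and 10.4 CPM in control libraries. The other 3 classes did not exceed 10.4 CPM. Lamb1, the beta chain of the general laminins (ENSMUSG00000002900), was instead highest in fibroblast-like cells, with 133 and 185 CPM in Zeb1 MSKO libraries, against 197 and 225 CPM in control libraries. Basal-like cells had 53.5 and 74.0 CPM of Lamb1 in Zeb1 MSKO libraries, against 66.04 and 59.5 CPM in control libraries. Both luminal classes stayed at or below 8.45 CPM of Lamb1, so the order was fibroblast-like, basal-like, endothelial-like and then luminal-like, with no overlap between the first 4 classes.

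Lamc1, the gamma chain shared by most laminins (ENSMUSG00000026478), followed Lamb1. Fibroblast-like cells had 210.4 and 214 CPM of Lamc1 in the 8 and 9 week Zeb1 MSKO libraries, against 250.5 and 260.3 CPM in the control libraries. Basal-like cells had 80.7 and 67.1 CPM of Lamc1 in Zeb1 MSKO libraries, against 71.3 and 61.2 CPM in control libraries. The basal-like range overlapped that of endothelial-like cells (48.0 to 79.3 CPM). Hormone-sensing luminal-like cells had 22.0 and 10.2 CPM of Lamc1 in Zeb1 MSKO libraries, against 11.01 and 6.27 CPM in control libraries, a range that overlapped the 7.62 to 11.9 CPM of luminal progenitor-like cells.

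The type IV collagen chains Col4a1 (ENSMUSG00000031502) and Col4a2 (ENSMUSG00000031503), which assemble into 1 molecule, were high in the stroma and in basal-like cells. Fibroblast-like cells had 425 and 399 CPM of Col4a1 in the 8 and 9 week Zeb1 MSKO libraries, against 392 and 220.2 CPM in the control libraries. Basal-like cells had 145 and 166.5 CPM of Col4a1 in Zeb1 MSKO libraries, against 131 and 134 CPM in control libraries. Luminal progenitor-like cells had 16.2 and 6.50 CPM of Col4a1 in Zeb1 MSKO libraries, against 7.25 and 6.69 CPM in control libraries. All 4 fibroblast-like values thus exceeded the basal-like ones, and the luminal ones were the lowest. Col4a2 was at 148.5 and 247 CPM in basal-like cells of Zeb1 MSKO libraries, against 133 and 184 CPM in control libraries. In fibroblast-like cells Col4a2 was at 255 and 413.5 CPM in Zeb1 MSKO libraries, against 239.8 and 240.3 CPM in control libraries. These Col4a2 ranges overlapped.

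Endothelial-like cells had 94.8 and 96.1 CPM of Col4a1 in Zeb1 MSKO libraries, against 110.3 and 326 CPM in control libraries. Their Col4a2 level was 69.2 and 108 CPM in Zeb1 MSKO libraries, against 75.5 and 245 CPM in control libraries. The control library at 9 weeks was the highest for both genes, and its 11 endothelial-like cells held only 20 Col4a1 and 15 Col4a2 UMIs. In that library 7 of the 8 pericyte markers were detected in endothelial-like cells and summed to 750.1 CPM, against 42.0 to 63.8 CPM in the other 3 libraries. The part of such cells in the collagen levels was not tested.

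Col17a1 (ENSMUSG00000025064) was the most basal of the 9 genes. Basal-like cells had 105 and 112 CPM of Col17a1 in the 8 and 9 week Zeb1 MSKO libraries, against 108.5 and 139.8 CPM in the control libraries. Across the other 4 classes no library exceeded 7.26 CPM. Basal-like cells held 9237 Col17a1 UMIs and endothelial-like cells 4, and all 4 were in the Zeb1 MSKO library at 8 weeks.

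**Figure D1:**
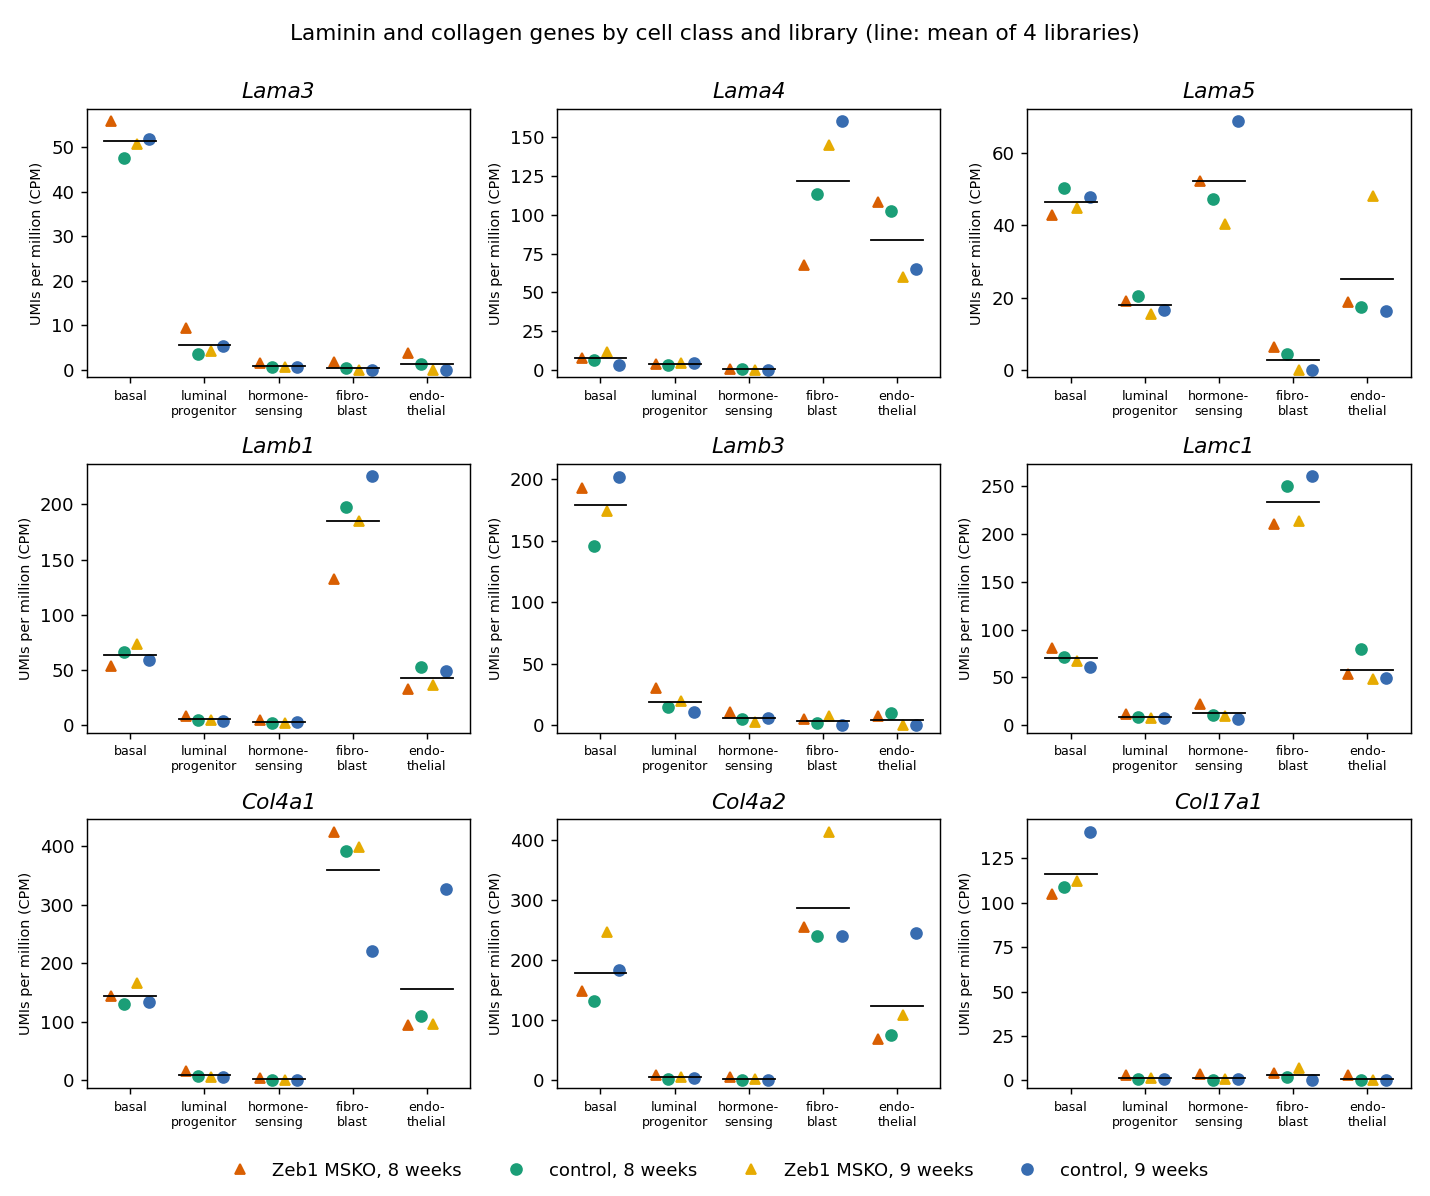
Level of each gene in CPM (vertical axis, from 0, with its own range per panel) in 5 cell classes, 1 point per library and a line at the mean of 4 libraries. Lama3, Lamb3 and Col17a1 stand high in basal-like cells alone, Lama4, Lamb1, Lamc1 and Col4a1 are highest in fibroblast-like cells, and Lama5 is as high in hormone-sensing luminal-like as in basal-like cells (means of 52.1 and 46.5 CPM).

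Set against luminal progenitor-like cells, basal-like cells had higher levels of 8 of the 9 genes and lower levels of none. Of all genes tested in this comparison 52.3% passed the same threshold, an adjusted p under 0.05 in edgeR's quasi-likelihood test on summed UMIs with the library as a block, and 26.1% passed it as higher in basal-like cells. The widest difference was that of Col17a1, with a log2 fold change of 6.68 ± 0.38 (SE; edgeR adjusted p = 3.17e-11). Col4a2 followed at 5.07 ± 0.37 and Col4a1 at 4.09 ± 0.32. The laminin chains Lamb1, Lamb3, Lama3 and Lamc1 lay between 2.97 and 3.54, and Lama5 had the smallest called difference at 1.38 ± 0.19. Lama4 did not pass, at 0.84 ± 0.36 (edgeR adjusted p = 0.0590). The median of the 9 genes was 3.32 on the log2 scale, against -0.03 over all genes tested.

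Against hormone-sensing luminal-like cells the basal-like cells were again higher in 8 of the 9 genes, where 67% of all genes tested passed in either direction and 33.8% as higher. Lama3 differed by a log2 fold change of 5.92 ± 0.22 (edgeR adjusted p = 3.56e-13), Col4a1 by 6.38 ± 0.37 and Lama4 by 4.62 ± 0.49. Lama5 was the exception, at -0.19 ± 0.19 (edgeR adjusted p = 0.374), with an approximate 95% upper limit of 0.17. The median of the 9 genes was 5.07, against 0.02 over all genes tested.

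The luminal classes also differed from each other. Luminal progenitor-like cells were higher than hormone-sensing luminal-like cells in 6 of the 9 genes and lower in Lama5, where 52.3% of all genes tested passed, 26.2% in each direction. Lama4 had the widest difference at 3.78 ± 0.50 on the log2 scale (edgeR adjusted p = 2.63e-06), followed by Lama3 at 2.62 ± 0.21 and Col4a1 at 2.29 ± 0.33. Lama5 had a log2 fold change of -1.57 ± 0.19 (edgeR adjusted p = 1.01e-06). Lamc1 and Col17a1 did not pass, with edgeR adjusted p = 0.114 and 0.666.

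The stroma split the set. Basal-like cells exceeded fibroblast-like cells in Lama3, Lama5, Lamb3 and Col17a1, and were lower in Lama4, Lamb1, Lamc1 and Col4a1, with 47.6% of all genes tested passing, 25.3% as higher and 22.3% as lower. The higher genes had log2 fold changes of 3.27 (Lama5) to 5.87 (Lamb3) and the lower ones of -1.19 (Col4a1) to -3.81 (Lama4). Col4a2 did not pass, at -0.56 ± 0.32 (edgeR adjusted p = 0.167).

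Against endothelial-like cells, basal-like cells were higher in 6 genes (Lama3, Lama5, Lamb1, Lamb3, Col4a2 and Col17a1) and lower in Lama4, where 43.4% of all genes tested passed, 24.5% as higher and 18.9% as lower. The log2 fold change of Lama4 was -3.44 ± 0.42 (edgeR adjusted p = 1.63e-06). Lamc1 and Col4a1 did not pass, at 0.53 ± 0.26 and 0.58 ± 0.34. Fibroblast-like cells exceeded endothelial-like cells in Lamb1, Lamc1, Col4a1 and Col4a2, by 1.76 to 2.23 on the log2 scale, and were lower in Lama5, at -1.77 ± 0.38. Of all genes tested 29% passed between these classes, 15.7% as higher and 13.4% as lower. Lama4 did not pass between the stromal classes, at 0.36 ± 0.41 (edgeR adjusted p = 0.568).

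**Figure D2:**
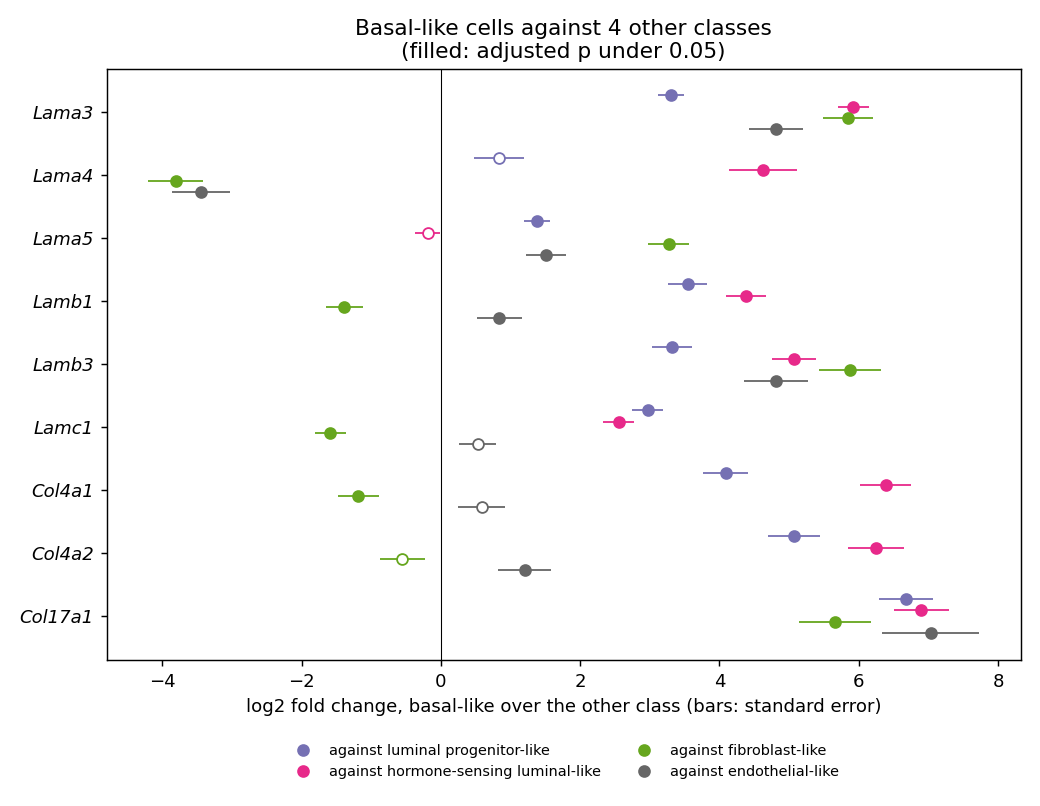
Log2 fold change (horizontal axis, with standard error bars) of basal-like cells over each of 4 other classes for the 9 genes, from edgeR on UMIs summed per library and class. Filled points passed an adjusted p of 0.05, and Lama4, Lamb1, Lamc1 and Col4a1 fall left of 0 against fibroblast-like cells while Lama3, Lamb3 and Col17a1 are right of 0 against every class.

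A few of these calls turned on 1 library or setting. Lamb1 against endothelial-like cells (log2 fold change 0.84, edgeR adjusted p = 0.0426) was lost without either 9 week library or the Zeb1 MSKO library at 8 weeks, and under RLE scaling, DESeq2 or with doublets kept, with adjusted p of 0.0544 to 0.150. Col4a2 against endothelial-like cells (1.20, edgeR adjusted p = 0.0155) was lost without the control library at 8 weeks, without the Zeb1 MSKO library at 9 weeks and under DESeq2, with adjusted p of 0.0613, 0.0700 and 0.0841. Lamc1 against endothelial-like cells passed without the control library at 8 weeks, at 0.96. Between the luminal classes, Lamb1 at 0.65 and Col4a2 at 1.08 missed the threshold without the control library at 8 weeks, and Col4a2 at 1.08 also without the Zeb1 MSKO library at 9 weeks. Lama4 passed against luminal progenitor-like cells with no filter on low counts, under a stricter gate, and without the control library at 9 weeks, at 0.83, 0.87 and 1.22. Leaving out the Zeb1 MSKO library at 8 weeks, Col4a2 passed as lower than in fibroblast-like cells, at -0.61.

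Some called sizes also moved by over 1.5 times without a call being lost. When the 8 week Zeb1 MSKO library was left out, the log2 fold change of basal-like over hormone-sensing luminal-like cells was 6.94 for Col4a2 and 7.60 for Col17a1, in place of 6.24 and 6.90. Without the same library, Lama3 stood at 7.29 against fibroblast-like and 5.51 against endothelial-like cells, in place of 5.84 and 4.81. Lama4 over hormone-sensing luminal-like cells was 3.81 in place of 4.62 without the Zeb1 MSKO library at 9 weeks. Against endothelial-like cells and without the control library at 8 weeks, Lamb3 was 5.53 in place of 4.82 and Col17a1 was 6.34 in place of 7.03. The size for Col17a1 rests on the 4 endothelial-like UMIs of the Zeb1 MSKO library at 8 weeks, since the other 3 libraries had none, and no fold is given without that library. With doublets kept, Lama3, Lama5, Lamb3 and Col17a1 were 5.002, 2.65, 5.26 and 4.99 over fibroblast-like cells, in place of 5.84, 3.27, 5.87 and 5.65.

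A set of 58 other basement membrane genes gives the surroundings of these differences, and 57 of them passed the filter on low counts. Basal-like cells were higher than luminal progenitor-like cells in 43 and lower in 4, and higher than hormone-sensing luminal-like cells in 42 and lower in 8. They were higher than fibroblast-like cells in 19 and lower in 31. The median log2 fold changes of these 57 genes were 1.98, 1.99 and -1.40 in the same 3 comparisons, each with the sign of the median of the 9 genes. Against endothelial-like cells 26 were higher and 11 lower. The shares over all genes tested were given above for each comparison, and for lower in basal-like cells they were 26.2% against luminal progenitor-like and 33.2% against hormone-sensing luminal-like cells. The 11 of 57 lower than in endothelial-like cells are near the 18.9% over all genes.

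By role, all 5 other laminin chains were higher in basal-like than in luminal progenitor-like cells. Of 10 laminin receptors and anchors, 9 were higher in basal-like than in luminal progenitor-like cells and 8 higher than in fibroblast-like cells, with none lower in either comparison. Itga6, the integrin alpha subunit of hemidesmosomes, differed from luminal progenitor-like cells by 1.99 ± 0.27. Of 10 other collagens, 7 were higher in basal-like than in luminal progenitor-like cells and none lower, but 7 were lower and 3 higher than in fibroblast-like cells.

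Between basal-like and luminal-like cells, the largest differences among those of the 58 genes at a mean of at least 10 CPM were of matrix proteins and collagen enzymes. Sparc, a collagen-binding matrix protein, was higher in basal-like than in luminal progenitor-like cells by 6.95 ± 0.59 on the log2 scale, and Fbln1, Postn and Col18a1 by 5.68 to 6.41. Over hormone-sensing luminal-like cells P3h2 (a collagen prolyl hydroxylase), Sparc, Plod2 (a collagen lysyl hydroxylase) and Fbln2 led, at 6.42 to 7.17. Between the luminal classes, Ntn1, a netrin of laminin-like structure, was higher in luminal progenitor-like cells by 6.14 ± 0.26. Its level there was 72.8 and 69.0 CPM in Zeb1 MSKO libraries, against 45.8 and 73.5 CPM in control libraries. Col8a1, Col6a3 and Plod1 were lower in luminal progenitor-like than in hormone-sensing luminal-like cells, by log2 fold changes of -5.68, -5.56 and -3.54.

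The stromal genes of the set were led by Lama2, a laminin alpha chain of mesenchyme. It was at 159.4 and 159.6 CPM in fibroblast-like cells of the 8 and 9 week Zeb1 MSKO libraries, against 154.5 and 225 CPM in the control libraries. Its log2 fold change in basal-like over fibroblast-like cells was -8.11 ± 0.43, and Smoc2, Col6a3 and Loxl2 lay at -7.61, -7.60 and -6.75. Lama2 had 1174 UMIs in fibroblast-like and 1 UMI in endothelial-like cells, a ratio of pooled CPM of 475 with a 95% counting interval of 85.0 to 18760. Frem1 and Lamc3 had no UMI in endothelial-like cells and were at least 12.8-fold and 11.99-fold higher in fibroblast-like cells, taking 3 counts over the class as the floor. Col6a2 was higher in fibroblast-like cells by 8.36 ± 0.83. Basal-like over endothelial-like cells, Tgfbi was at -7.18 ± 0.50 and Col7a1, the anchoring fibril collagen, at 5.48 ± 0.56. Over the libraries, Tgfbi ranged from 0 to 329.6 CPM in endothelial-like cells, and Col7a1 held 4 UMIs there in all. Fbln1 and Lama1 had 3 and 1 UMIs in endothelial-like cells, with ratios of pooled CPM of 47.7 (95% counting interval 16.3 to 232) and 50.3 (9.02 to 1990).

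Across the 20 sums of 5 classes and 4 libraries, the genes fell into a few common profiles, described here by Pearson's r of log2(CPM + 1) with no test, since sums share libraries and classes. Col4a1 and Col4a2 had r = 0.986, Lama3 and Lamb3 0.948, and Lamb1 and Lamc1 0.968. Col17a1 went with Lama3 (0.880) and Lamb3 (0.875), and Lama4 with Lamb1 (0.833). Lama5 went against Lama4 (-0.695). Among 5516 other genes whose mean was 20 CPM or more, Col9a2 was most like Lama3 (0.964) and Lamb3 (0.957), and Col9a3 came next for Lamb3 (0.9499). Csrp2 and Dlc1 were most like Lama4 (0.976 and 0.972), Mtfr1 and Uchl5 most like Lama5 (0.920 and 0.909), and Gpx7 and Fstl1 most like Lamb1 (0.985 and 0.979). Rnase4 and Mfap2 were most like Lamc1 (0.984 and 0.983), and Moxd1 and Il17b most like Col17a1 (0.982 and 0.981). After its partner chain, Col4a1 was most like Tpst1 (0.985) and Col4a2 most like Sparc (0.985).

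The share of cells with a UMI depends on depth and was compared at equal depth. Lamb3 was seen in 65.2% and 71.6% of basal-like cells of the 8 and 9 week Zeb1 MSKO libraries, against 62.6% and 77.4% in the control libraries. With each cell thinned to 2000 UMIs, the shares were 32.1% and 28.9% in Zeb1 MSKO libraries, against 24.2% and 32.7% in control libraries. Col17a1 was seen in 45.9% and 57.7% of basal-like cells in Zeb1 MSKO libraries, against 56.9% and 63.8% in control libraries. Thinned, these were 19.1% and 19.9% in Zeb1 MSKO libraries, against 19.5% and 23.2% in control libraries, so the gap at 8 weeks narrowed once cells had equal depth.

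Free RNA in droplets gives UMIs in cells that do not make a transcript, and leukocyte-like cells were set beside the epithelium as a class that should lack these genes. Of 105 leukocyte-like cells, 14 (13.3%) held a Lamb3 UMI, a pooled level of 22.2 CPM, while none held Lama3 or Lama4, which allows a share of up to 2.86% of cells with a UMI and sets no limit on cells that express the gene. For Lamb3 they do not give a level common to all classes, since Lamb3 averaged 3.57 CPM in fibroblast-like, 4.36 CPM in endothelial-like and 5.75 CPM in hormone-sensing luminal-like cells. The 22.2 CPM rest on 16 UMIs. The Lamb3 level in luminal progenitor-like cells (10.4 to 30.2 CPM, 9.08% to 21.9% of cells) spanned the leukocyte-like level and lay above every value of those 3 classes, and how much of it is free RNA was not tested. Median depths were 7554 to 8190 UMIs in luminal progenitor-like cells and 3960 to 6202 UMIs in leukocyte-like cells. Lamc1 was at 6.94 CPM (5 UMIs), Col4a2 at 4.17 CPM (3 UMIs), Col4a1 at 2.78 CPM (2 UMIs) and Col17a1 at 1.39 CPM (1 UMI) in leukocyte-like cells. The Col4a2 level of both luminal classes also lay near that background. So did Col17a1, with means of 1.43 CPM in luminal progenitor-like and 1.32 CPM in hormone-sensing luminal-like cells. Lamc1 in luminal progenitor-like cells (mean 9.06 CPM) and Col4a1 in hormone-sensing luminal-like cells (mean 1.89 CPM) were near it too. The part of free RNA in these levels was not tested. Lama5 in both luminal classes, by contrast, exceeded its 2.78 CPM (2 UMIs) in leukocyte-like cells in every library.

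The genotype comparison asked whether these genes differed between Zeb1 MSKO and control cells of the same class, with 2 libraries on each side. In basal-like cells none of the 9 passed the threshold, and of all 12879 genes tested 0% did. Lama4 had the largest estimate, a log2 fold change of 0.90 ± 0.45 (edgeR unadjusted p = 0.0844, adjusted p = 1), from 9.86 ± 2.76 CPM in Zeb1 MSKO and 5.03 ± 2.39 CPM in control libraries (SD, n = 2). Its ratio within age was 0.16 at 8 weeks and 1.75 at 9 weeks on the log2 scale. The other 8 genes lay between -0.25 (Col17a1) and 0.26 (Col4a2), and 6 of the 9 estimates were positive. The median was 0.05, against 0.01 over all genes.

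These estimates carry wide limits. Approximate 95% limits were taken from a normal quantile of the standard error. The upper limit was 0.70 for Col4a1, 0.92 for Col4a2, 0.59 for Lamb3 and 0.30 for Col17a1 on the log2 scale. With so few libraries such limits are too narrow, and larger effects are not excluded. The lower limit of Lama4 taken in this way was positive, at 0.0224, though its edgeR unadjusted p was 0.0844. At an unadjusted p under 0.05, 74 genes passed in basal-like cells, none of them among the 9, and DESeq2 called 3 genes at an adjusted p under 0.05.

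In luminal progenitor-like cells 0% of 12892 genes passed, and none of the 9. Of the 9 estimates, 8 were positive, with a median of 0.52 against -0.004 over all genes. At an unadjusted p under 0.05, 182 genes passed, Lamb3 alone of the 9, and DESeq2 called 10 genes. Lamb3 had a log2 fold change of 0.90 ± 0.34 (edgeR unadjusted p = 0.0343, adjusted p = 1) and was the steadiest, with ratios of 0.90 at 8 weeks and 0.89 at 9 weeks. The part of free RNA in its level was not tested. Col17a1 had 1.48 ± 0.66, from 3.09 and 1.18 CPM in the 8 and 9 week Zeb1 MSKO libraries, against 0.583 and 0.856 CPM in the control libraries. The Zeb1 MSKO library at 8 weeks set most of that difference, with a within-age ratio of 2.17 at 8 weeks and 0.41 at 9 weeks. Col4a2 had 0.84 ± 0.37, with 8.94 and 5.66 CPM in Zeb1 MSKO libraries, against 3.28 and 4.49 CPM in control libraries.

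Hormone-sensing luminal-like cells gave a like picture, with 0% of 12868 genes and none of the 9 passing. Again 8 of 9 estimates were positive, with a median of 0.76 against 0.02 over all genes. At an unadjusted p under 0.05, 488 genes passed, Col4a2 alone of the 9, and DESeq2 called 35 genes. Col4a2 had a log2 fold change of 1.69 ± 0.63 (edgeR unadjusted p = 0.0428, adjusted p = 1), from 6.08 and 1.93 CPM in the Zeb1 MSKO libraries, against 1.16 and 1.34 CPM in the control libraries. Col17a1 had 1.71 ± 0.91, from 3.45 and 0.608 CPM in Zeb1 MSKO libraries, against 0.500 and 0.719 CPM in control libraries. Lamc1 had 0.93 ± 0.46, with within-age ratios of 1.03 at 8 weeks and 0.74 at 9 weeks. Lama5, the member this class holds most of, had -0.29 ± 0.27. When the 8 week Zeb1 MSKO library was left out, the estimates of Lama4, Lamb3 and Col4a1 in this class turned to -2.72, -1.09 and -0.03, and in luminal progenitor-like cells those of Lama3, Lamb1, Lamc1 and Col4a1 turned to -0.13, -0.05, -0.04 and -0.13.

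At 8 weeks, basal and fibroblast markers in both luminal classes were higher in the Zeb1 MSKO than in the control library. At 9 weeks Krt14 was lower in the Zeb1 MSKO library in both classes, and the marker sums went both ways. Luminal progenitor-like cells had 185 and 32.9 CPM of the basal keratin Krt14 in the 8 and 9 week Zeb1 MSKO libraries, against 34.3 and 40.3 CPM in the control libraries. In hormone-sensing luminal-like cells Krt14 was at 127 and 19.5 CPM in Zeb1 MSKO libraries, against 19.0 and 28.2 CPM in control libraries. The 8 week Zeb1 MSKO library stood apart in both classes. All 11 basal markers were detected in both luminal classes of every library. In luminal progenitor-like cells the markers summed to 493 and 221 CPM in Zeb1 MSKO libraries, against 126 and 186 CPM in control libraries. Their sum in hormone-sensing luminal-like cells was 395 and 143 CPM in Zeb1 MSKO libraries, against 83.3 and 149 CPM in control libraries. All 10 fibroblast markers were detected as well. Their sum in luminal progenitor-like cells was 94.4 and 5.29 CPM in Zeb1 MSKO libraries, against 26.3 and 4.77 CPM in control libraries. In hormone-sensing luminal-like cells the fibroblast markers summed to 123 and 25.04 CPM in Zeb1 MSKO libraries, against 50.3 and 21.6 CPM in control libraries. The part of basal, fibroblast or hair follicle keratinocyte RNA in the luminal estimates was not tested.

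**Figure D3:**
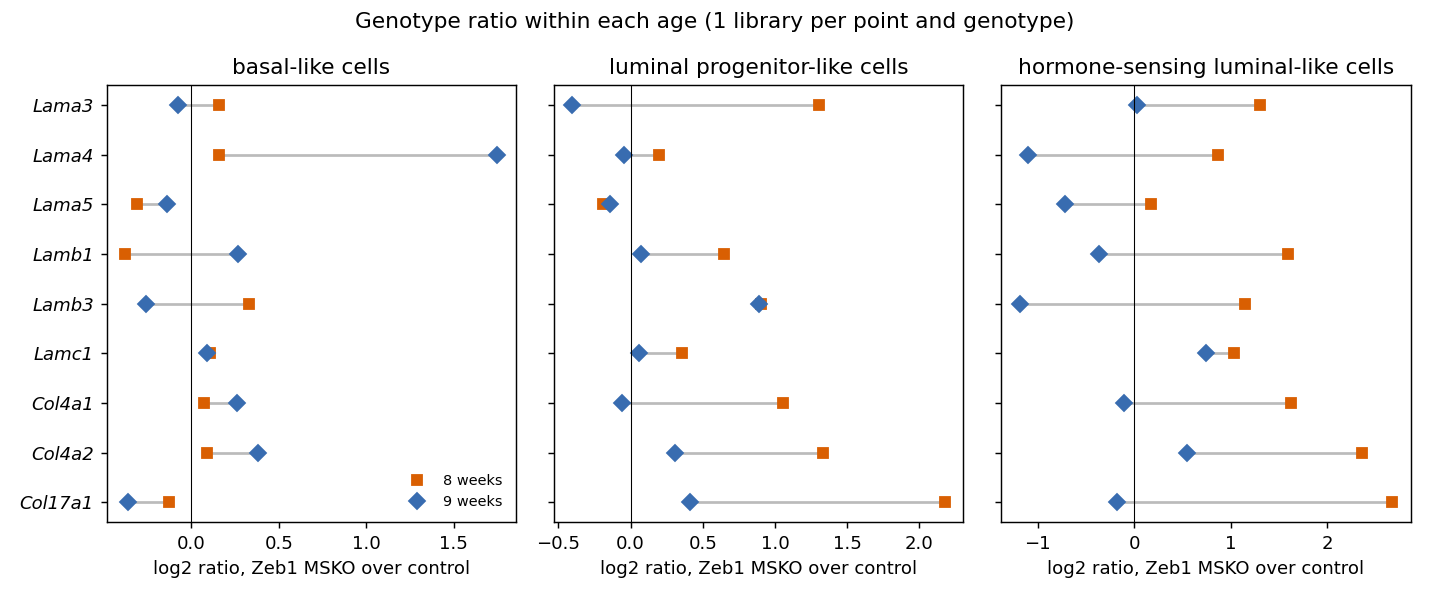
Log2 ratio of Zeb1 MSKO over control (horizontal axis, prior count of 2) within 8 weeks (squares) and within 9 weeks (diamonds) for the 9 genes in the epithelial classes, each point comparing 1 library with 1 library. In the luminal-like classes the 8 week ratios reach 2.17 and 2.67 (Col17a1), while at 9 weeks most lie nearer 0.

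**Figure D4:**
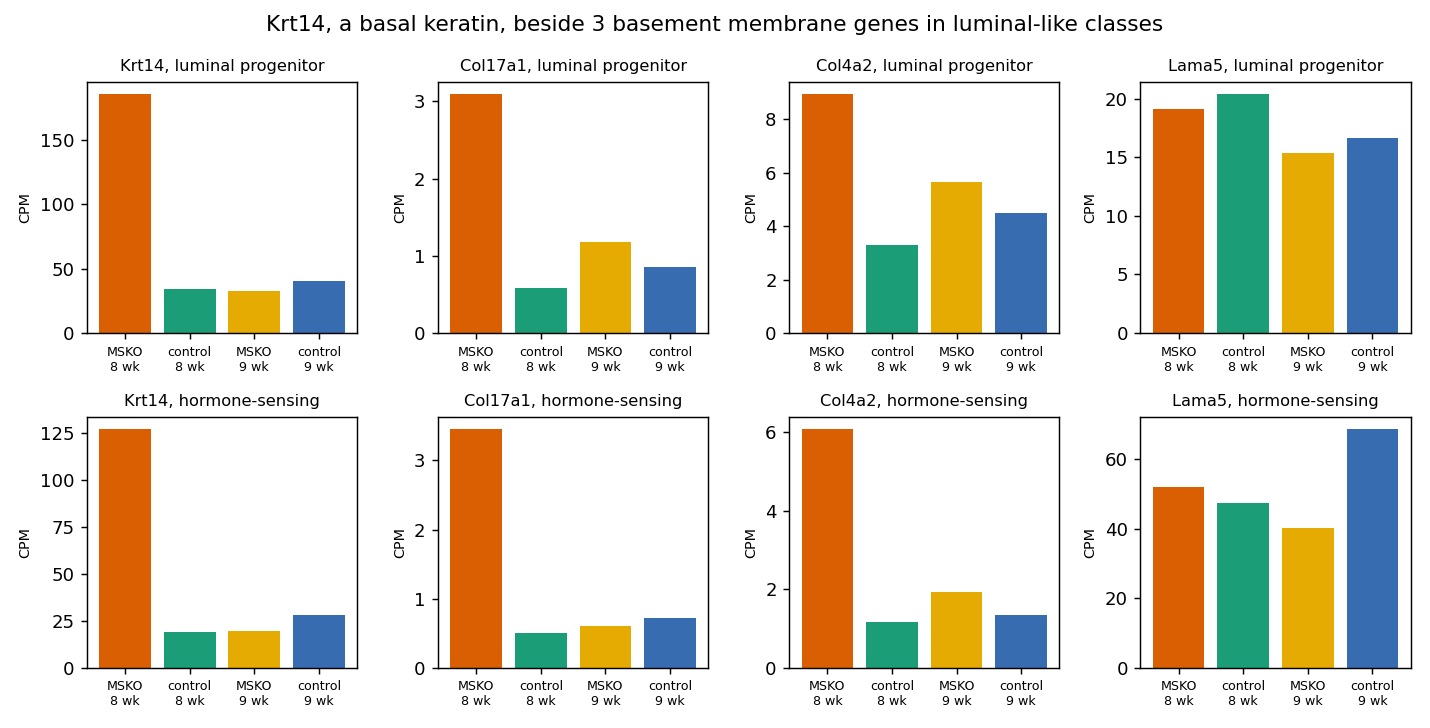
CPM of Krt14, Col17a1, Col4a2 and Lama5 (vertical axes from 0, each with its own range) by library in luminal progenitor-like (top) and hormone-sensing luminal-like cells (bottom), 1 bar per library with no error bar. Krt14, Col17a1 and Col4a2 are highest in the Zeb1 MSKO library at 8 weeks in both classes, and Lama5 is not.

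In the stroma, 5 of the 9 genes could be tested in fibroblast-like and 6 in endothelial-like cells. None passed, and 0% of 8826 and 0% of 6877 genes did. At an unadjusted p under 0.05, 169 and 14 genes passed, none of the tested members among them, and DESeq2 called 0 and 1 genes. Lamb1 had -0.46 ± 0.28 on the log2 scale in fibroblast-like cells (edgeR unadjusted p = 0.137, adjusted p = 0.9996) and was below the control library of its age at 8 and at 9 weeks. Col4a1 had -1.03 ± 0.65 in endothelial-like cells, where the control library at 9 weeks with its 20 UMIs was far above the rest, and stood at -0.30 without that library.

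Differences of the genotype effect between epithelial classes were tested as interactions, and no gene of the 9 passed. The share of all 14521 genes that passed was 0% for luminal progenitor-like minus basal-like cells, 0.00689% for hormone-sensing luminal-like minus basal-like cells and 0.0275% for luminal progenitor-like minus hormone-sensing luminal-like cells (0.0207% as lower). At an unadjusted p under 0.05, 326, 648 and 780 genes passed in the same order, and DESeq2 was not run for interactions. Col17a1 had the largest differences from basal-like cells, at 1.52 ± 0.67 for luminal progenitor-like and 1.54 ± 0.68 for hormone-sensing luminal-like cells (edgeR unadjusted p = 0.0484 and 0.0491, adjusted p = 1 for both). The hormone-sensing difference rested on the Zeb1 MSKO library at 8 weeks. It stood at 0.32 without that library, and passed at 2.77 (edgeR adjusted p = 0.0172) without the Zeb1 MSKO library at 9 weeks. Each such omission leaves 1 Zeb1 MSKO library, which is assumed to vary like the control libraries. For luminal progenitor-like cells the difference was 0.95 and 2.26 (edgeR adjusted p = 1 and 0.0640) under the same omissions. Lamc1 had the lowest p of the 9 genes, at 0.76 ± 0.32 for hormone-sensing luminal-like minus basal-like cells (edgeR unadjusted p = 0.0418, adjusted p = 1), and stood at 0.42 to 1.13 with 1 library left out.

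Of the other basement membrane genes none passed in a genotype comparison. In basal-like cells the lowest unadjusted p belonged to Fbln1, with 39.5 and 38.7 CPM in the 8 and 9 week Zeb1 MSKO libraries, against 68.0 and 55.2 CPM in the control libraries. Its log2 fold change was -0.72 ± 0.30 (edgeR unadjusted p = 0.0484, adjusted p = 1). Ecm1 at -0.56 and Loxl2 at 0.94 came next. In luminal progenitor-like cells these were Hspg2 (perlecan) at 0.98, Sparc at 1.69 and Bcam, a laminin receptor, at -0.63. Hormone-sensing luminal-like cells had Pxdn at 1.43, Col6a1 at 1.87 and Npnt at 1.02. In fibroblast-like cells Itga6, Lamc3 and Ecm1 stood at 2.24, 1.08 and -0.55, and in endothelial-like cells P4ha1, Postn and Itgb1 stood at -1.20, -1.48 and -0.56. Sparc in luminal progenitor-like cells ranged from 10.03 to 59.94 CPM over libraries, with a mean of 23.15 CPM, against 2195 CPM in basal-like cells. Itga6 in fibroblast-like cells rested on 60 UMIs, and its mean in basal-like cells was 175.1 CPM. The part of RNA from other cells in these estimates was not tested.

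Within the type IV collagen pair, the share of Col4a2 in the summed UMIs of both genes differed more between ages than between genotypes in basal-like cells. It was 50.7% (exact binomial 95% interval 49.5% to 51.8%) and 59.7% (58.7% to 60.8%) in the Zeb1 MSKO libraries at 8 and 9 weeks, against 50.3% (48.7% to 51.9%) and 57.7% (56.4% to 59.0%) in the control libraries. Both 9 week shares lay above both 8 week shares, by more than counting error, which is all that these intervals cover. Fibroblast-like cells showed the same order, with 37.5% and 50.9% in Zeb1 MSKO libraries, against 38.0% and 52.2% in control libraries. Luminal progenitor-like cells had 35.6% and 46.5% in Zeb1 MSKO libraries, against 31.1% and 40.1% in control libraries. In hormone-sensing luminal-like cells the ages were close within each genotype, with 61.5% and 61.7% in Zeb1 MSKO libraries, against 48.7% and 50% in control libraries. These shares rest on 37 to 95 UMIs per gene and library, and both genes lay near the leukocyte-like background in this class. The intervals of the genotypes overlapped there, at 8 weeks with 53.0% to 69.55% and 37.0% to 60.4%. The intervals of the 2 ages overlapped in luminal progenitor-like cells of control libraries (26.5% to 36.1% and 34.3% to 46.2%) and, within each genotype, in hormone-sensing luminal-like and endothelial-like cells. Each age has 1 library per genotype, so age and preparation cannot be told apart, and the smallest two-sided p that an exact permutation test of 2 libraries against 2 can give is 0.333.

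**Figure D5:**
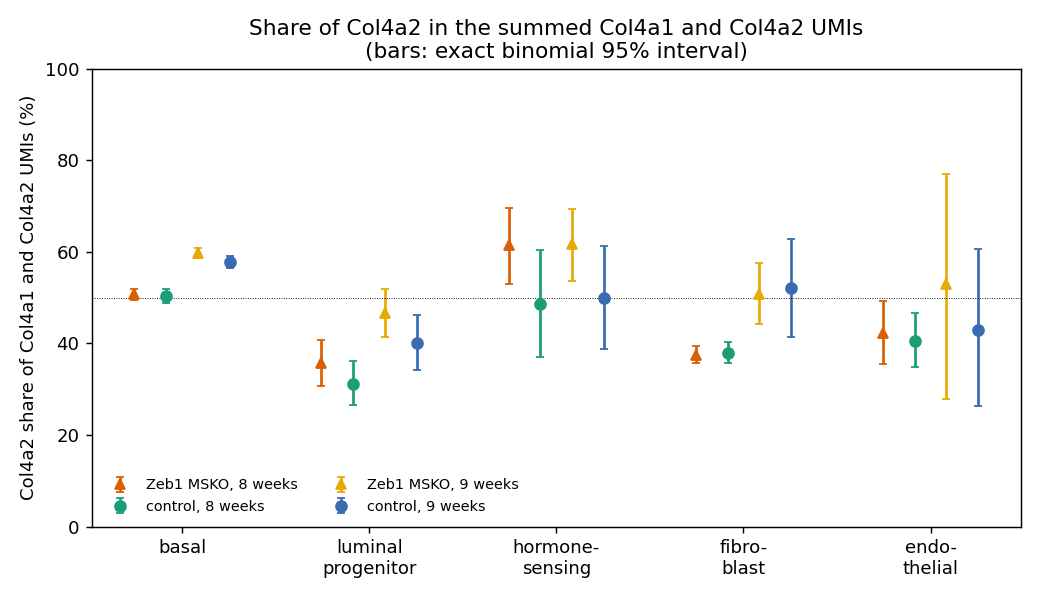
Share of Col4a2 in the summed Col4a1 and Col4a2 UMIs (vertical axis, percent) by cell class and library, with exact binomial 95% intervals that cover counting error only. In basal-like cells the 9 week libraries (59.7% and 57.7%) lie above the 8 week libraries (50.7% and 50.3%) in both genotypes.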

How the data were processed

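The authors deposited unnormalized UMI counts for each gene in each cell barcode, made with Cell Ranger 2.1.0 on mm10, per the submitters' processing notes. The barcode suffix names the library, per the labels. Whether aggregation brought libraries to equal depth is not given.

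Cells with at least 500 genes and at most 10% mitochondrial UMIs were kept. Doublets were scored per library against simulated doublets (2 per cell, 25 neighbours) at an assumed rate of 8%, and 6.53% to 7.64% were removed, except in classes under 50 cells in a library. Of 10 marker lists, a cell took the class whose markers led by 20 percentage points in the share of the list with at least 2 UMIs, with at least 3 such markers. The remaining 2498 cells stayed without a class.

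UMIs were summed per library and class and tested with edgeR 4.0.16 (quasi-likelihood, TMM, default filter on low counts, Benjamini-Hochberg over all genes tested) in R 4.3.3. On simulated data, the genotype test in basal-like cells recovered 8% of changes by a log2 fold of 1 and 82% of those by 2. The test of basal-like against luminal progenitor-like cells recovered 95% and 100%. The interaction of luminal progenitor-like minus basal-like cells recovered 1% and 30%, so absent genotype and interaction calls do not exclude such changes. Class comparisons used 1 fit over 5 classes with the library as a block. DESeq2 1.42.0 was an alternative. Named genes of the 58-gene list were, per class comparison, the 4 called genes with the largest fold change at a mean of at least 10 CPM, and per genotype comparison the 3 with the lowest p. The 9 genes and the lists were chosen with earlier results of these data known. In the labels the replicate number stands for age. Intervals of counts and shares and the floor of 3 counts reflect counting error alone. Limits of log2 fold changes take a normal quantile of the standard error and are too narrow with so few libraries. 1 gene of the 58-gene list is not reported here by name.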

Additional observations from a re-analysis of the deposited data

Results flagged for a closer look

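Among 45 combinations of gene and cell class, each with 4 libraries, 10 held a library far from the other 3. The rule flags about 1 in 20 groups of independent, normally spread values, which low counts from shared libraries are not. In 5 luminal groups the far library was the Zeb1 MSKO library at 8 weeks, with a high value. These were Lama3 at 1.52 CPM, Col4a1 at 3.80 CPM, Col4a2 at 6.08 CPM and Col17a1 at 3.45 CPM in hormone-sensing luminal-like cells, and Col4a1 at 16.2 CPM in luminal progenitor-like cells. The same library held the only 4 Col17a1 UMIs of endothelial-like cells, at 3.11 CPM. The basal markers that moved with these values are given in the results, and their part was not tested.

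The other 4 were in 9 week libraries with 8 to 33 cells of the class. In endothelial-like cells Lama5 was at 48.0 CPM in the Zeb1 MSKO library (4 UMIs) and Col4a1 at 326 CPM in the control library (20 UMIs). In fibroblast-like cells Col4a2 was high at 413.5 CPM in the Zeb1 MSKO library (114 UMIs), and Col4a1 was low at 220.2 CPM in the control library (44 UMIs).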

How the results depend on the processing

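Among called class differences of the 9 genes, 418 repeats under another setting kept direction and call and 12 lost the call, as named in the results, and 105 repeats of uncalled differences stayed so while 5 gained a call. No genotype estimate of the 9 genes passed under any setting tried, and 25 of 372 repeats changed sign. The stroma values at 9 weeks rest on 8 to 33 cells a class and library. Where 1 library was left out, the lone library of its genotype is assumed to vary like the others. The cause of each change below was not tested.

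With 1 library left out, the sign-changing estimates had these ranges on the log2 scale. In basal-like cells they were -0.042 to 0.15 for Lama3, -0.25 to 0.16 for Lamb1, -0.15 to 0.23 for Lamb3, -0.059 to 0.26 for Lamc1 and -0.10 to 0.57 for Col4a2. In luminal progenitor-like cells they were -0.13 to 0.97 for Lama3, -0.15 to 0.33 for Lama4, -0.0499 to 0.76 for Lamb1, -0.043 to 0.44 for Lamc1 and -0.13 to 1.11 for Col4a1. In hormone-sensing luminal-like cells they were -2.72 to 1.46 for Lama4, -0.56 to 0.0204 for Lama5, -1.09 to 1.03 for Lamb3 and -0.028 to 1.57 for Col4a1. In fibroblast-like cells they were -0.95 to 0.043 for Lama4 and -0.0193 to 0.89 for Col4a1, and in endothelial-like cells -0.27 to 0.36 for Lama4 and -1.44 to 0.052 for Col4a2.

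Counts of all genes called moved as follows. With no filter on low counts, the genotype comparisons called 45 genes in basal-like, 104 in luminal progenitor-like, 4 in hormone-sensing luminal-like, 42 in fibroblast-like and 12 in endothelial-like cells, in place of 0. DESeq2 called 3, 10, 35, 0 and 1 genes in the same order. Leaving out 1 library gave 0 to 8, 0 to 5, 0 to 1, 0 to 140 and 0 genes. The interaction of luminal progenitor-like minus basal-like cells called 0 to 14 genes with 1 library left out. That of hormone-sensing luminal-like minus basal-like cells called 8 genes with no filter and 0 to 81 with 1 library left out. That of luminal progenitor-like minus hormone-sensing luminal-like cells called 44 genes with no filter, 0 with doublets kept, 0 under the stricter gate and 0 to 59 with 1 library left out. Among class comparisons, basal-like against endothelial-like cells called 4015 to 5775 genes, and fibroblast-like against endothelial-like cells 2290 to 3962 genes, with 1 library left out.

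By the labels, the 2 libraries of an age share only that age, but they were also alike in stromal cell numbers. Fibroblast-like cells numbered 549 and 403 in the Zeb1 MSKO and control libraries at 8 weeks, against 33 and 25 at 9 weeks. The ratios of 9 over 8 weeks of the 2 genotypes correlated across genes with r of 0.164 (fibroblast-like) to 0.422 (endothelial-like), and genes are not independent. A fit with this replicate block called 0 genes in basal-like, luminal progenitor-like and endothelial-like, 2 in hormone-sensing luminal-like and 67 in fibroblast-like cells, none of the 9 genes among them. Under the replicate block, Lama4 stood at -0.088 and Lamb3 at -0.0185 in hormone-sensing luminal-like cells.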
